A study of Zea mays with 6 samples.

Results

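Among the transcripts of very young maize ears, 179 genes had higher levels in wild type than in both lines with altered RHW1, the knockout and the overexpressor, and these genes are described here. They were chosen by their measured levels: counts per 1000000 reads (CPM, the reads of a gene scaled to that library size) had to average at least 5 over the 6 libraries, and all 4 values of the altered lines had to lie below both wild-type values. The wild-type mean also had to lie at least 25% above the mean of each line, and the overexpression mean had to be between 0.67 and 1.5 times the knockout mean. Of the 45578 genes in the table, 17376 reached 5 CPM. Every level, ratio and order of genotypes below is therefore a description of genes picked for that order, and no test of them is given as evidence for it.

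RNA came from ears up to 0.5 cm long, and each of the 3 genotypes had 2 libraries. Wild type carried no change that the labels name. The knockout was made with CRISPR and corresponds to the rhw1-1 allele of the design text, and the overexpressor was the single line OE#1. Each altered genotype was thus 1 line, and the labels name neither the inbred background, nor the promoter of the overexpression construct, nor whether the wild-type plants were siblings of either line. Nothing in them ties the paired libraries of a genotype to separate plants, so the spread between these libraries may be technical.

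RHW1 is placed by the series title upstream of ZCN4 in the control of husk leaf width. Husk leaves are modified leaves that form on the short branch below the ear and enclose it. ZCN genes are the maize relatives of the FT and TFL1 family, small proteins that act with bZIP factors to advance or delay flowering and to keep inflorescence tips growing. The young ear sampled here holds the inflorescence meristem and the axillary meristems that it produces. A shift in cell makeup and a shift in RNA per cell cannot be told apart in such bulk tissue.

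All 179 genes carried Zm00001d identifiers, as did 17367 of the 17376 genes of at least 5 CPM. The other 9 were 8 ENSRNA non-coding genes and 1 microRNA gene. The reference table used here pairs 0 of the 179 identifiers with a name. The genes are therefore given by identifier, without roles, positions or sequences, and neither RHW1 nor any marker of the ear or of another tissue was checked.

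The rule narrowed the genes in steps. Of the 17376 genes, 2329 (13.4%) had all 4 libraries of the altered lines below both wild-type libraries. Within these 2329, the wild-type mean was at least 25% above that of the knockout in 289 genes and at least 25% above that of the overexpressor in 762. Both ratios reached that size in 188. Of these, 7 were left out because overexpression was below 0.67 times the knockout and 2 because it was above 1.5 times, which gave the 179. Both ratios share the wild-type libraries, so a high reading of a gene in wild type raises both at once.

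**Figure D1:**
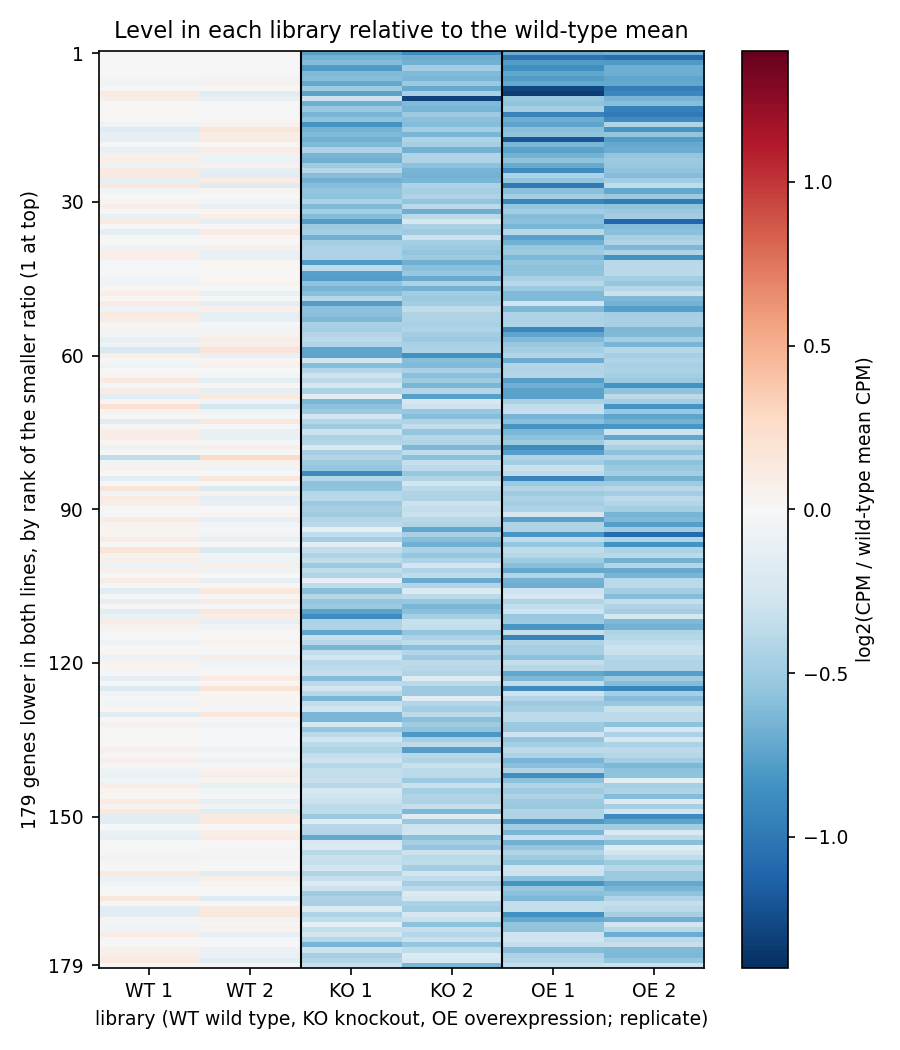
Each row is 1 of the 179 genes, ordered by the smaller of its ratios of wild type to knockout and to overexpression, and each column is 1 library. Colour gives log2 of the CPM divided by the mean of both wild-type libraries. The knockout and overexpression columns are blue throughout, and wild-type columns stay near 0, with the widest wild-type pair at 4.80 and 7.47 CPM.

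As a whole the genes lay at about 0.7 of their wild-type level in both lines. Relative to its own wild-type mean, the median gene stood at 74.0% and 72.9% in the knockout libraries and at 69.2% and 70.7% in the overexpression libraries. The genes together took 0.744% and 0.722% of all reads in wild type, 0.544% and 0.541% in the knockout, and 0.508% and 0.507% in overexpression. The libraries of a genotype thus lay close together on this sum. Without the single most abundant gene, which took 20.1% of the genes' reads, the shares were 0.592% and 0.578% in wild type, 0.428% and 0.422% in the knockout, and 0.416% and 0.414% in overexpression. The order of wild type, knockout and overexpression was the same in both sums. Total counts were 21094445 to 23999698 reads per library.

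The differences were modest in size. The ratio of wild type to knockout had a median of 1.35 and ranged from 1.252 to 1.76. The ratio of wild type to overexpression had a median of 1.43 and ranged from 1.251 to 2.15. The smaller of the 2 ratios, which measures how far wild type stood above the nearer line, was at least 1.3 in 112 genes, at least 1.4 in 34, at least 1.5 in 10 and at least 2 in 0. Taken singly, the ratio to the knockout was at least 1.5 in 31 genes and the ratio to overexpression in 60, and the latter was at least 2 in 3 genes.

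In a fit of all genes by edgeR's quasi-likelihood test, called below an adjusted p of 0.05 (Benjamini-Hochberg over 22947 tested genes), 118 of the 179 were called lower in the knockout, where 4.48% of all tested genes were. In overexpression, 156 were called lower, beside 13.9% of all tested genes, and 109 were called lower in both lines, beside 2.15%. All 179 entered the test. The rule used these contrasts, so the counts describe how many of the chosen genes also exceed the spread that edgeR assigns them. The 179 included 14 genes that were called in neither line, 47 that were called in overexpression alone and 9 in the knockout alone. Over all tested genes too, more were called lower in overexpression (3196) than in the knockout (1028), with 494 called lower in both.

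The median log2 fold change of the 179 genes was -0.44 in the knockout and -0.50 in overexpression, beside 0.000929 and -0.00503 for all tested genes, with a median standard error (SE) of 0.13 in each. The knockout count depended on the tool and on single libraries. With DESeq2 it was 72, and the count for both lines was 63. The knockout count also fell without wild type replicate 1 and without knockout replicate 1. The count for both lines fell whichever single library was left out. The share of all tested genes called in these fits was not counted, so the falls cannot be read as a trait of the members.

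The 12 genes with the largest smaller ratio set the upper end. Zm00001d011063 led them with 11.6 and 12.1 CPM in wild type, 7.0 and 6.49 in the knockout, and 7.30 and 7.42 in overexpression. Both lines lay well below wild type and close to each other, at log2 fold changes of -0.82 (SE 0.14) and -0.67 (SE 0.14). Zm00001d010287 had 30.6 and 30.3 CPM in wild type, 19.3 and 18.8 in the knockout, and 15.0 and 14.7 in overexpression. Its libraries agreed closely within each genotype, and it had the widest gap of all 179 genes: its lower wild-type value was 1.57 times the highest value of either line. Its log2 fold changes were -0.68 (SE 0.09) in the knockout and -1.02 (SE 0.10) in overexpression.

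Zm00001d025474 stood at 44.0 and 43.6 CPM in wild type, 28.9 and 27.5 in the knockout, and 25.6 and 25.3 in overexpression, so the 3 genotypes did not overlap. Zm00001d035659 had almost equal libraries within wild type and within the knockout, at 77.8 and 78 CPM in wild type, 50.7 and 50.7 in the knockout, and 47.0 and 48.5 in overexpression. Its log2 fold changes were -0.63 (SE 0.05) in the knockout and -0.69 (SE 0.06) in overexpression. Zm00001d028064 showed the other order of the lines, with 30.8 and 30.5 CPM in wild type, 19.0 and 19.9 in the knockout, and 20.7 and 20.2 in overexpression. The last pair lay just above the knockout pair.

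Zm00001d043047 and Zm00001d002093 had the deepest levels in overexpression relative to wild type. The first had 28.6 and 29.2 CPM in wild type, 20.4 and 17.7 in the knockout, and 11.99 and 14.9 in overexpression. Its log2 fold changes were -0.61 (SE 0.10) and -1.09 (SE 0.11). The second had 9.82 and 8.003 CPM in wild type, 5.28 and 6.49 in the knockout, and 3.56 and 4.75 in overexpression. Its log2 fold changes were -0.61 (SE 0.17) and -1.08 (SE 0.18). These were, with Zm00001d010287, the only 3 of the 179 in which the ratio of wild type to overexpression reached 2. In both, the 3 genotypes formed a descending order without overlap.

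**Figure D2:**
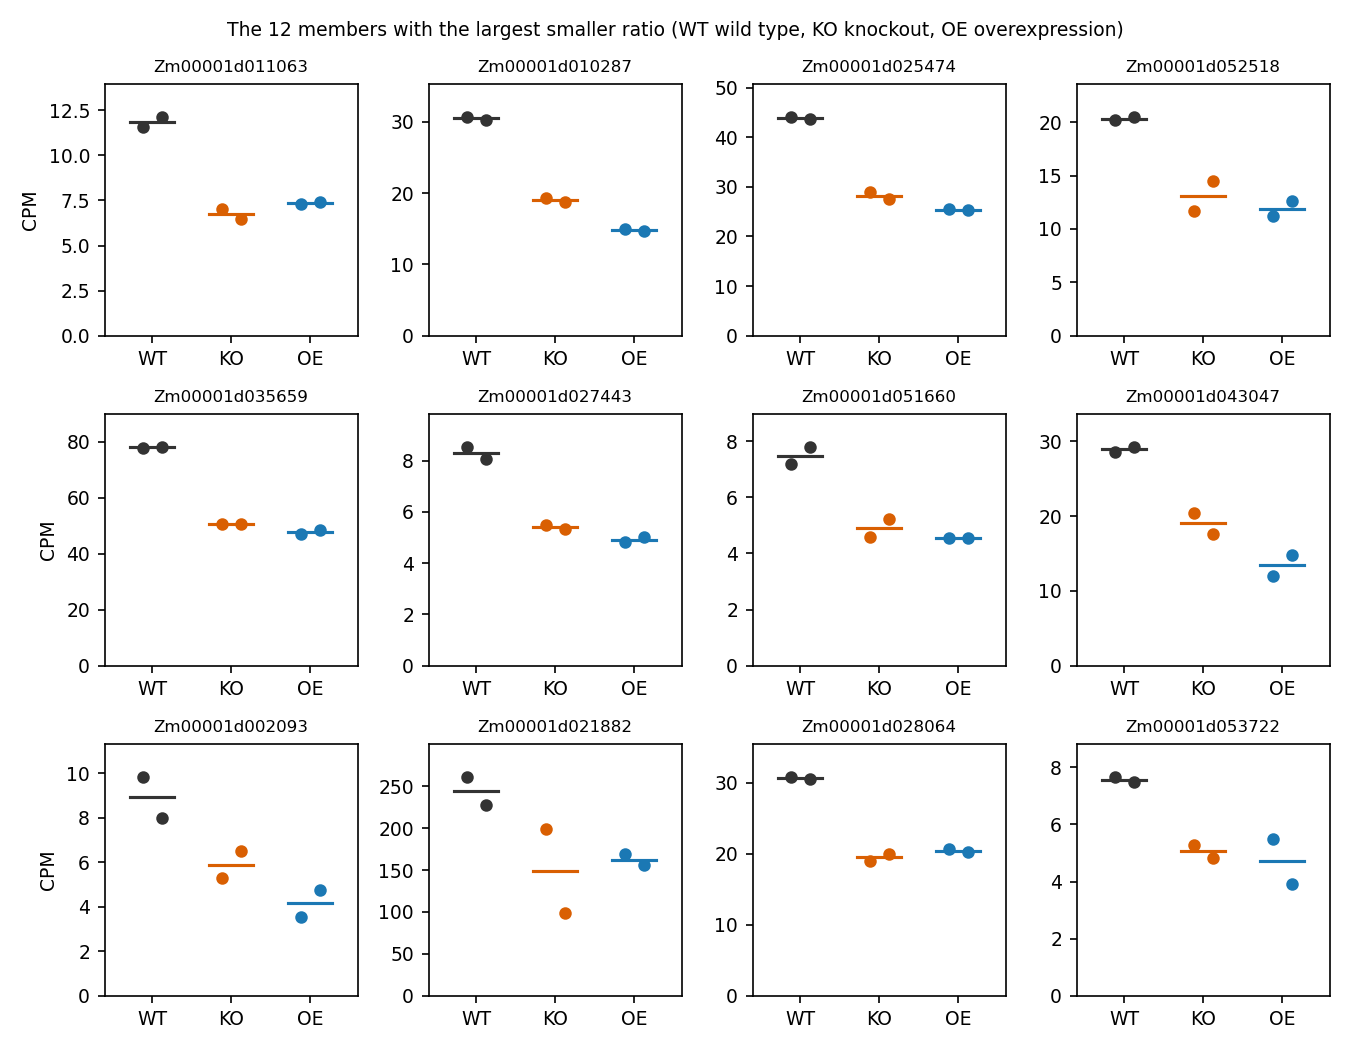
Levels in CPM (axes start at 0) of the 12 genes in which wild type (WT) stood furthest above the nearer line; KO is knockout and OE overexpression. Points are libraries and bars are the means of 2; in Zm00001d021882 the knockout points lie at 199 and 99.3 CPM, while both knockout points of Zm00001d035659 lie at 50.7 CPM.

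Of the remaining 5, Zm00001d021882 was the least certain, with 261 and 227 CPM in wild type, 199 and 99.3 in the knockout, and 169 and 155 in overexpression. Its knockout libraries differed by a ratio of 2.0, the widest of any member and genotype. Its log2 fold change in the knockout, -0.71 (SE 0.12), became -1.30 without knockout replicate 1 and -0.30 without knockout replicate 2. DESeq2 gave this gene similar log2 fold changes, -0.72 in the knockout and -0.57 in overexpression, and called neither, while edgeR called both. Zm00001d052518 had 20.2 and 20.5 CPM in wild type, 11.7 and 14.5 in the knockout, and 11.2 and 12.6 in overexpression, so that the lines overlapped each other.

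The other 3 were weakly expressed. Zm00001d027443 had 8.52 and 8.05 CPM in wild type, 5.49 and 5.32 in the knockout, and 4.84 and 5.0 in overexpression. Zm00001d051660 had 7.18 and 7.78 CPM in wild type, 4.57 and 5.23 in the knockout, and 4.55 and 4.54 in overexpression. Zm00001d053722 had 7.66 and 7.47 CPM in wild type, 5.28 and 4.83 in the knockout, and 5.499 and 3.92 in overexpression. Behind each of these values stood 94 to 197 reads. The log2 fold change of Zm00001d053722 in overexpression, -0.68 (SE 0.18), was -0.44 without overexpression replicate 2.

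The genes with the most reads were counted more precisely. CPM is not corrected for transcript length, so this ranks reads and not transcript number. Zm00001d013568 had 1526 and 1435 CPM in wild type, 1159 and 1193 in the knockout, and 911 and 932 in overexpression. Its 3 genotypes descended without overlap, with log2 fold changes of -0.34 (SE 0.02) in the knockout and -0.67 (SE 0.02) in overexpression. Zm00001d048702 had 1289.9 and 1242 CPM in wild type, 927 and 930.0 in the knockout, and 1003.9 and 1003.7 in overexpression. Here the knockout was the lower line, at a log2 fold change of -0.45 (SE 0.02) beside -0.32 (SE 0.02) in overexpression.

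Zm00001d017840 had 323 and 314 CPM in wild type, 241 and 257 in the knockout, and 213 and 206 in overexpression. Zm00001d031636 had 175 and 176 CPM in wild type, 142 and 136 in the knockout, and 122 and 112 in overexpression. Both resembled Zm00001d013568, with the knockout between wild type and overexpression. Zm00001d022367 had 180 and 181 CPM in wild type, 122 and 133 in the knockout, and 130.2 and 126 in overexpression. Its lines overlapped, at a ratio of overexpression to knockout of 1.00. Zm00001d021882, described above, was the other gene of the 6 with the highest CPM.

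Most members had fewer reads than the typical gene of this tissue. Their median level over the 6 libraries was 10.7 CPM, beside 31.5 CPM for all 17376 genes of at least 5 CPM. Between 5 and 10 CPM lay 83 of the 179 (46.4%), beside 13.7% of the 17376, and at 100 CPM or more lay 7 (3.91%), beside 14.1%. With the 17376 genes split by level into 4 groups of 4344, 114 members were in the lowest group, 34 in the second, 21 in the third and 10 in the highest. These were 2.62%, 0.783%, 0.483% and 0.230% of these groups.

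The number of reads behind a ratio varied accordingly. The median number of reads per member was 308 and 297 in the wild-type libraries, 225 and 217 in the knockout, and 185 and 218 in overexpression. Counting error alone, from the reads of both libraries of each genotype, was a median of 6.25% of the ratio of wild type to knockout and at most 9.28%. For the ratio to overexpression it was a median of 6.39% and at most 9.29%. The lowest count of any member in a library was 70 reads, and 20 members had fewer than 100 reads in at least 1 library. Among the members, the median of the smaller ratio was 1.32 at 5 to 10 CPM and 1.32 at 10 to 20 CPM. It was 1.33 at 20 to 50 CPM, 1.33 at 50 to 100 CPM and 1.28 at 100 CPM or more. The rule removed every gene whose smaller ratio lay below its minimum, at every level. These medians therefore cannot show whether the size of the ratio depended on level.

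Overexpression was more often the lower of the lines. Its mean was below the knockout mean in 122 of the 179 genes (68.2%) and above it in 57, and it was below in 54.6% of the 17376 genes. The median ratio of overexpression to knockout was 0.937 in the members and 0.984 in the 17376 genes. The rule limited this ratio, so the order is a description as well. By library, the same values put the lowest value of a member in overexpression replicate 1 in 62 genes, overexpression replicate 2 in 52, knockout replicate 1 in 34 and knockout replicate 2 in 31. The rule kept wild type from being lowest, and the matching shares of the 17376 genes were not counted.

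In about as many members as not, the libraries of the lines overlapped each other. Both overexpression libraries lay below both knockout libraries in 65 of the 179 members, about the same share as the 36.8% of the 17376 genes. They lay above them in 23 of the 179, a smaller share than the 29.1% of the 17376 genes. The lines overlapped in 91 of the 179. This was a larger share than over the 17376 genes, where 6403 lay below and 5061 above, but the rule limited the ratio between the lines. The edgeR test between the lines called 12 members lower in overexpression, beside 12.6% of all tested genes, and 6 higher, beside 14.1%. In 95 members the ratio lay between 0.9 and 1.1, in 19 it was below 0.8 and in 8 above 1.2.

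**Figure D3:**
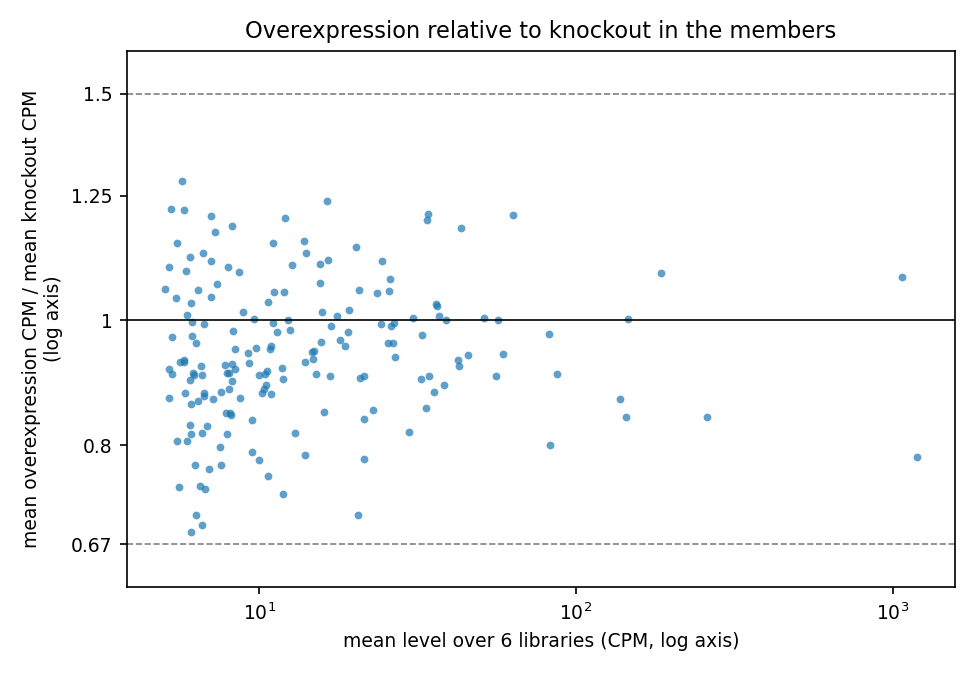
Each point is 1 of the 179 genes, with its mean CPM over the 6 libraries (log axis) against the ratio of mean overexpression to mean knockout CPM (log axis). Dashed lines are the limits of the rule, 0.67 and 1.5; more points lie below 1 (122 genes) than above it (57 genes), and most points lie toward the left, at a median of 10.7 CPM.

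At the lower end of this ratio stood Zm00001d030031, with 8.26 and 7.78 CPM in wild type, 6.33 and 5.86 in the knockout, and 4.55 and 3.79 in overexpression. Its log2 difference of overexpression from knockout was -0.53 (SE 0.18). Zm00001d012418 was next, with 7.44 and 9.73 CPM in wild type, 7.21 and 6.04 in the knockout, and 4.65 and 4.54 in overexpression, a log2 difference between the lines of -0.51 (SE 0.18). One of its knockout libraries almost reached the lower wild-type value, and its log2 fold change in the knockout, -0.38 (SE 0.16), was -0.17 without wild type replicate 2. Zm00001d002093, given above, was the third, at a ratio of 0.705. In all 3, the knockout lay between the other genotypes. The edgeR test called the first 2 between the lines but not in the knockout (adjusted p 0.13 and 0.16). It called Zm00001d002093 in the knockout but not between the lines (adjusted p 0.059).

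The upper end held Zm00001d002064, with 7.91 and 6.90 CPM in wild type, 4.44 and 4.10 in the knockout, and 5.59 and 5.38 in overexpression. Zm00001d032926 had 18.7 and 21.9 CPM in wild type, 12.3 and 13.5 in the knockout, and 16.2 and 15.8 in overexpression. In both, overexpression lay between the knockout and wild type without overlap, at log2 differences between the lines of 0.38 (SE 0.18) and 0.33 (SE 0.12). The log2 fold change of Zm00001d032926 in overexpression, -0.33 (SE 0.11), was -0.21 without wild type replicate 2. Zm00001d008939 had 6.66 and 6.63 CPM in wild type, 3.60 and 4.60 in the knockout, and 5.21 and 4.79 in overexpression, a log2 difference between the lines of 0.31 (SE 0.19). Its wild-type libraries were almost equal and its knockout libraries were not. The edgeR test called Zm00001d032926 lower in both lines and also between the lines. It called Zm00001d002064 and Zm00001d008939 in the knockout, but not in overexpression (adjusted p 0.061 and 0.10) or between the lines (0.12 and 0.25).

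Replicates of the members varied somewhat more than those of all 17376 genes. The higher library of a genotype was a median of 1.07 times the lower in wild type, 1.09 in the knockout and 1.09 in overexpression, beside 1.051, 1.053 and 1.0501 for the 17376 genes, whose counts are higher. The higher library was at least 25% above the lower in 9 members for wild type, 21 for the knockout and 20 for overexpression. The rule used these same values, and the matching shares of the 17376 genes were not counted. These counts therefore do not rank the genotypes by replicate spread. Wild type replicate 1 was the higher of its pair in 95 members and replicate 2 in 84. In 71 members the wild-type libraries were within 5% of each other.

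The gap between the genotypes was often narrow. The lower wild-type value divided by the highest of the 4 values of the altered lines had a median of 1.21. The lower wild-type value was less than 5% above that highest value in 11 members and at least 25% above it in 55. The narrowest, chosen here after its values were seen, was Zm00001d002369, with 7.31 and 8.93 CPM in wild type, 7.29 and 4.78 in the knockout, and 4.84 and 6.29 in overexpression. One knockout library was thus almost level with wild type. The widest wild-type pair, also singled out afterwards, was that of Zm00001d035064, at 4.80 and 7.47 CPM, beside 4.61 and 4.10 in the knockout and 4.60 and 4.63 in overexpression. Its place in the list rested on wild type replicate 2. The widest overexpression pair, likewise singled out afterwards, was that of Zm00001d025622, at 5.40 and 8.38 CPM.

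The limit of 25% cut through a continuous range. Just inside it lay Zm00001d020686, with 29.5 and 28.6 CPM in wild type, 23.2 and 18.6 in the knockout, and 23.0 and 23.4 in overexpression. Zm00001d044695, with 10.8 and 8.80 CPM in wild type, 7.34 and 8.30 in the knockout, and 7.35 and 6.67 in overexpression, and Zm00001d018198 followed. The smaller ratios of these 3 were 1.251, 1.252 and 1.252. Zm00001d018198 had 6.66 and 5.84 CPM in wild type, 4.53 and 5.46 in the knockout, and 4.65 and 4.04 in overexpression.

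Just outside, with every other limit met, lay Zm00001d043011, with 7.44 and 6.94 CPM in wild type, 5.62 and 4.15 in the knockout, and 5.55 and 5.96 in overexpression. Zm00001d010446 had 9.30 and 10.5 CPM in wild type, 8.34 and 7.49 in the knockout, and 5.36 and 6.21 in overexpression. Zm00001d044327 had 6.88 and 6.15 CPM in wild type, 4.53 and 5.91 in the knockout, and 4.31 and 5.96 in overexpression. By the limits they met, these 3 had wild type above both lines in every library, as the members did.

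The same limits were also applied with each genotype in turn as the one that stood apart. Wild type was higher than both lines in the 179 genes and lower than both in 87. The knockout was higher than both other genotypes in 111 genes and lower in 197, and overexpression was higher in 601 and lower in 935. The 179 genes were thus about as many as those in which the knockout alone was low, and fewer than those in which overexpression alone was high or low. These are counts without a test. As shares of the 17376 genes, wild type stood highest in 1.03%, the knockout lowest in 1.13% and overexpression lowest in 5.38%.

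**Figure D4:**
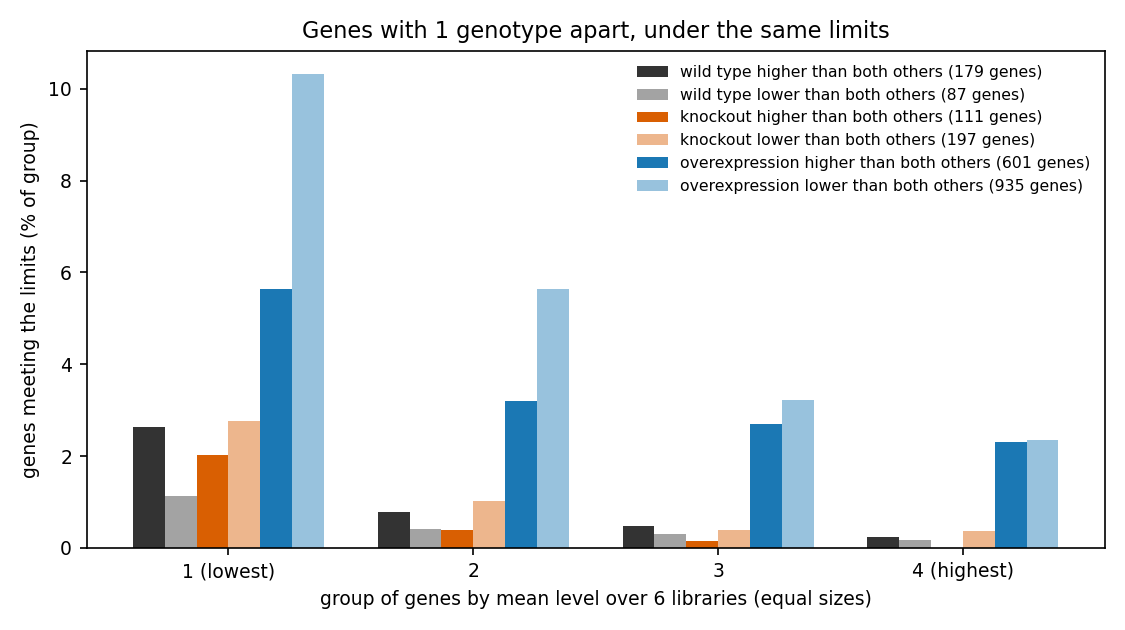
Bars give the percentage of genes in each of 4 groups by mean level (4344 genes each) that met the limits with wild type, knockout or overexpression as the genotype higher (dark) or lower (light) than both others. Wild type was higher in 2.62% of the lowest group and 0.230% of the highest, and overexpression was lower in 10.3% and 2.35%.

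Weak expression was shared by all these patterns. The median level was 10.7 CPM where wild type was highest, 11.8 where it was lowest, 8.87 where the knockout was highest and 12.1 where it was lowest. Where overexpression stood apart it was 20.2 CPM for the higher genes and 16.3 for the lower genes. Without limits on size or on the ratio of the other genotypes, wild type was above both lines in all libraries in 2329 genes and below both in 2638. With the 25% minimum alone, the counts were 188 above and 101 below.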

How the data were processed

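The authors deposited raw, unscaled read counts per gene for 6 libraries, 1 column each; other columns of samples numbered 0. StringTie, HTSeq, HISAT2 2.1.0, Trimmomatic 0.35 and edgeR 3.32.1 appear in the submitters' processing notes, with no roles. The sources used here give no build, annotation or strand setting, so overlapping, antisense and near-identical genes have uncertain counts.

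CPM was the count divided by the column total, times 1000000. Counts were filtered with filterByExpr (minimum count 10; 22947 genes), scaled by TMM (factors 0.991 to 1.01) and tested with edgeR 4.0.16 in R 4.3.3 in 1 quasi-likelihood fit of 3 group means (3 residual and 33.2 prior degrees of freedom), adjusted by Benjamini-Hochberg. SE was the log2 fold change divided by the square root of F. The calculation was tested on simulated data. The counting errors cover counting only, while the SE also includes the spread between libraries that edgeR estimates.

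The members, lists and tests were chosen with earlier results of these data known. Named genes were the 12 with the largest smaller ratio, the 6 with the highest CPM, 3 at each end of the ratio between the lines, and 3 on each side of the 1.25 limit; others are marked as chosen after their values were seen. Planned annotation lists and tissue markers were not counted, since 0 of 43789 Zm00001d identifiers matched the reference table. Alternatives included DESeq2 1.42.0, limma-voom (limma 3.58.1), other filters and limits, the replicate number as a block, and each library left out.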

Additional observations from a re-analysis of the deposited data

How the results depend on the processing

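The number of genes meeting the rule was 407 with a minimum of 1 CPM, 96 with 10 CPM, 1127 with a minimum ratio of 1.1, 10 with 1.5 and 0 with 2, as each limit only adds or removes genes. It stayed within 1.5 times of the main number with TMM-scaled libraries (181, of which 175 were members), other limits on the ratio between the lines (188 and 159) and no required separation (182). With 1 library left out it was 187 to 256, of which 142 to 164 were among the members. DESeq2 called 72 members lower in the knockout, 115 in overexpression and 63 in both. A 1.5-fold minimum left 35, 56 and 11, and 0 between the lines, where edgeR, DESeq2 and limma-voom also gave 0 at an unadjusted p under 0.05; the rule itself limits that ratio. With 1 library left out, the knockout had 70 to 123 members called lower, overexpression had 120 to 159, both had 61 to 99, and 13 to 20 differed between the lines. A group with 1 library left is assumed to vary like the others. The share of all tested genes called was not counted under any of the alternative settings. A change in the member counts therefore cannot be read as a trait of the members. RLE size factors, other filters, limma-voom and fits of the 2 groups compared kept all 4 counts within 1.5 times. Libraries were not paired by their replicate number: deviations of same-numbered libraries correlated at -0.0457, -0.00719 and -0.00324 across genes. With the replicate number as a block, 115 members were called in the knockout, 156 in overexpression, 106 in both and 18 between the lines, beside 118, 156, 109 and 18. Of 806 log2 fold changes of the 28 genes named by the rule under alternatives, 0 changed sign, 54 lost a call and 2 gained one. Against wild type these genes were chosen for that sign, and between the lines for the ends of that ratio. The unchanged signs are therefore no evidence of robustness. With 2 libraries a genotype and a median of 6.25% counting error, ratios near the 25% limit in weakly expressed genes are the least precise.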
